A study of Mus musculus with 40 samples.

Results

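RNA of 10 secreted or surface proteins of mucosal defence was followed through mouse branching lung organoids, which are cultures grown from the epithelial tips of the embryonic lung. The 10 genes were Pigr, Lcn2, Lyz1, Lyz2, Chil1, Chia1, Retnla, Pglyrp1, Cd177 and Cd14, taken by symbol from 5 tables of RNA-seq expression that list 55260 genes each (55286 in the LO table). Each symbol was found in every table. They were picked as a group with earlier results of these same libraries in view, across culture days, pieces, LO days, 2C cultures and factor omissions, and were chosen on their TPM in those settings, so these values are a description and carry no p-value. The contrast of organoids with uncultured tips was not among those settings and is the 1 comparison with p-values per gene. Its organoid libraries are those of the culture days, however, so their values were in view when the genes were chosen. Those p-values set differences beside the spread between libraries and are no independent evidence for the group.

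The values are TPM, transcript abundances scaled for transcript length and library total, and 40 libraries were used. The 10 organoid libraries, labelled as lung organoids, came from tips of embryonic day E9.5, E10.5, E11.5, E13.5 or E14 and were cultured for 11 to 32 days. They were set against 4 libraries of lung tip epithelial cells, 1 for each day of gestation from E10.5 to E13.5, which had no culture day in their labels. Duplicate organoid libraries named ALL-FGF10, ALL-MTG and ALL-VC were set against duplicates named ALL, and single libraries named 2C+F10, 2C+MTG, 2C+VC and a further unnumbered ALL were set against 2C. The LO libraries were LO_day11_DCI and LO_day8, LO_day11 and LO_day18, and 8 libraries of organoid pieces were set against 1 labelled intact. The labels give no mouse strain and do not spell out LO, DCI, 2C, MTG, VC or ALL. The minus sign is read here as a factor left out and the plus sign as a factor added. Nothing states that replicates came from separate cultures or embryos, so the p-values measure the spread between these libraries, which may be partly technical.

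Airway and alveolar epithelium secretes proteins that bind, starve or lyse microbes, and carries receptors that sense their surface molecules. Pigr encodes the polymeric immunoglobulin receptor, which carries IgA across epithelium, and Cd14 encodes a co-receptor for bacterial lipopolysaccharide. Lyz1 and Lyz2 encode lysozymes, which cut bacterial cell walls. Lyz2 is known as a product of mouse macrophages and alveolar type 2 cells, and Lyz1 as a product of Paneth cells of the gut. Lcn2 encodes lipocalin 2, which binds bacterial iron carriers, and Pglyrp1 encodes a peptidoglycan recognition protein. Chia1 encodes the acidic mammalian chitinase and Chil1 a chitinase-like protein without chitinase activity. Retnla encodes a small secreted resistin-like protein best known from type 2 immune responses, and Cd177 a surface glycoprotein best known from neutrophils.

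On the GRCm38 build, which the labels call mm10, all 10 are annotated as protein-coding genes and no annotated gene on either strand overlaps them. Pigr lies at chr1:130826684-130852249 and Chil1 at chr1:134182176-134190181, both on the plus strand. Lyz1 (chr10:117287797-117292868) and Lyz2 (chr10:117277331-117282321) are neighbours on the minus strand. Lcn2 is at chr2:32384633-32388252 and Chia1 at chr3:106113229-106132120. Retnla is at chr16:48842551-48844461, with Pglyrp1 at chr7:18871331-18890459 and Cd177 at chr7:24743983-24760311.

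Promoters of 4 genes are shown from RefSeq (GRCm38.p6), each from 250 bases before to 50 bases after RefSeq's start of the gene, 5′ to 3′ on the gene's strand. For Pglyrp1 that start lies well inside the gene's span given above, which comes from another annotation and begins further upstream. The Lyz1 and Lyz2 promoters are given because these genes are near-copies and their values have to be read together. Capitals mark matches to TTGCNNAA, a C/EBP motif, and to CACTTGA, an NKX2-1 motif, on either strand. The Lyz1 window is chr10:117292819-117293118 and the Lyz2 window chr10:117282223-117282522, both on the minus strand.
Lyz1: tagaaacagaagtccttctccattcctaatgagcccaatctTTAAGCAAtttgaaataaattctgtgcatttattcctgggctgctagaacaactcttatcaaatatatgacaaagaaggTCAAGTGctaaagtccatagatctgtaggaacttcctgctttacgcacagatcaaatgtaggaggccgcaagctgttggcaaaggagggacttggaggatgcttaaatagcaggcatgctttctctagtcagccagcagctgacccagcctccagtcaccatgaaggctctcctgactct
Lyz2: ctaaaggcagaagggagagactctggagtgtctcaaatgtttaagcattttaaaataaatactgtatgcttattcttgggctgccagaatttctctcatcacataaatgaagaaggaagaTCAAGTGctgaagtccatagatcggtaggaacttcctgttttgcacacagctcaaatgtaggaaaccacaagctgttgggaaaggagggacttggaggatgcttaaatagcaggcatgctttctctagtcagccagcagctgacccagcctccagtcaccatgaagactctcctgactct
Both hold the NKX2-1 letters at positions -130 to -124 from the start, and Lyz1 alone of the pair holds the C/EBP letters, at -209 to -202. The promoters were identical at 249 of 298 aligned bases (83.6%). The transcripts were identical at 96.0% of 1262 aligned bases, and 15.4% of all 50-base windows of the Lyz2 transcript occur unchanged in Lyz1. Reads from such windows cannot be told apart, so each lysozyme value alone is uncertain and their summed TPM is given where the difference matters.

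Chil1 and Pglyrp1 are shown because their windows hold a match, in capitals, to the NF-kB consensus, a motif bound by the NF-kB factors that drive many innate defence genes. The windows are chr1:134181906-134182205 for Chil1 and chr7:18884440-18884739 for Pglyrp1, both on the plus strand.
Chil1: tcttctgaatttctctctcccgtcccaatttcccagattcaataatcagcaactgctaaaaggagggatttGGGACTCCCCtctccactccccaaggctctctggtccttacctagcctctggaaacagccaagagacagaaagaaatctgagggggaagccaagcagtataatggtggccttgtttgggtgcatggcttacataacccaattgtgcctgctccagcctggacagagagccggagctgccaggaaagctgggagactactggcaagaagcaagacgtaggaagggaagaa
Pglyrp1: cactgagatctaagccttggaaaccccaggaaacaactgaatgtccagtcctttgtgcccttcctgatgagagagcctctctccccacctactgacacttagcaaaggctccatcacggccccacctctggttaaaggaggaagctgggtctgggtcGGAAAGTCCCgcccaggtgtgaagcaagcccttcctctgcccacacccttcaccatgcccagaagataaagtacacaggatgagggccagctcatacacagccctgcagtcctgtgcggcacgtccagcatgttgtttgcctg
The Chil1 match lies at -179 to -170 from the start on the gene's strand, and the Pglyrp1 match at -93 to -84 on the other strand. Of 32851 promoters of this length, 4.51% hold the consensus on either strand. The C/EBP letters occur in 10.8% of promoters and in Lcn2, Lyz1 and Retnla, and the NKX2-1 letters in 3.06% of promoters and in Lyz1 and Lyz2. No 2 of these matches overlap. Promoters of 9 of the 10 genes, all but Cd14, were matched by symbol, and a match describes letters in a window, not a bound site.

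The labelled tissue was checked by marker genes. Together 8 lung epithelial markers summed to 1527 to 3107 TPM across the 40 libraries, with all 8 above 0 in each. A set of 10 alveolar type 2 (AT2) markers summed to 55221 to 137047 TPM in organoids against 792 to 1146 TPM in tips. A further 20 myeloid markers, listed because several of the 10 genes are also made by macrophages and neutrophils, summed to 1.61 to 8.82 TPM in organoids and 6.18 to 20.5 TPM in tips. The neutrophil gene Elane was listed at 0 in all 40 libraries, and the pan-leukocyte gene Ptprc reached at most 0.06 TPM in organoids and 0.24 TPM in tips. Each library held 13036 to 14418 genes at 1 TPM or more, and mitochondrial genes took 6.54% to 15.2% of its TPM. TPM does not record read depth, so the depth is unknown and no counting interval is given. In bulk RNA, fewer cells of a type and less RNA per cell cannot be told apart.

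The mucosal defence genes were close to absent from uncultured tips and abundant in organoids. Their TPM summed to 79.85 to 7477 in organoids, up to 0.749% of all TPM, against 0.38 to 4.75 in tips. Of the 10, 7 were higher in organoids by limma's moderated test on log2(TPM + 1), with Benjamini-Hochberg adjustment over the 16779 genes kept and a threshold of 0.05: Lcn2, Lyz1, Lyz2, Chil1, Chia1, Pglyrp1 and Cd14. Across all genes kept, 21.7% were called higher and 40.2% lower. Only Cd14 reached 1 TPM in 2 or more tips, so the other 9 genes were kept through the organoids alone. Neither their count of calls nor their p-values set them apart. Of the genes called, 35.0% were higher, against 45.6% after quantile normalization and 48.7% after median-ratio rescaling, and the 7 genes were called under each. The median gene differed by -0.20 on the log2 scale.

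Lysozyme RNA was among the most abundant of the 10 in organoids. Lyz1 ran from 47.2 TPM through a median of 723 TPM to 5288 TPM in the 10 organoids and was listed at 0 in all 4 tips (adjusted p = 6.01e-06). Lyz2 ran from 2.77 through 28.7 to 118 TPM in organoids, against 1.45 TPM in the E10.5 tip and 0 in the other tips. On the log2(TPM + 1) scale Lyz2 was higher by 4.34 ± 0.83 (SE; adjusted p = 0.000278). For both genes the lowest organoid lay above the highest tip.

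The proteins that bind microbial products followed. Lcn2 had a lowest value of 4.37 TPM, a median of 267 TPM and a highest value of 1362 TPM in organoids and was listed at 0 in all tips (adjusted p = 0.00022). Pglyrp1 had 0.87, 26.3 and 139.5 TPM as lowest, median and highest organoid values and was also listed at 0 in all tips (adjusted p = 0.00269). Cd14, the gene with RNA in every tip, ran from 6.28 through 29.2 to 78.6 TPM in organoids, against 2.68, 0.23, 0.38 and 1.01 TPM in tips, given from E10.5 to E13.5. Its difference was 3.64 ± 0.66 on the log2 scale (adjusted p = 0.000172), and the groups did not overlap.

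Both chitinase-family genes were higher in organoids. Chil1 ran from 8.46 through 277 to 2162 TPM in organoids, against 0.62 TPM in the E10.5 tip and 0 in the others, a difference of 7.85 ± 0.96 on the log2 scale (adjusted p = 3.72e-06). Chia1 ran from 0.14 through 4.51 to 38.2 TPM in organoids, against 0.44 TPM in the E11.5 tip and 0 in the others, a difference of 2.42 ± 0.73 (adjusted p = 0.0094). The lowest Chia1 organoid, the 30-day culture, lay below the highest tip, so the groups overlapped.

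Pigr, Retnla and Cd177 did not pass the test over all organoids. Pigr ran from 0 through 9.43 to 222.7 TPM in organoids and reached 0.17 TPM in 1 tip (log2 difference 3.38 ± 1.48, adjusted p = 0.0583). Retnla ran from 0 through 1.73 to 11.3 TPM and Cd177 from 0 through 0.34 to 45.4 TPM in organoids, with both listed at 0 in all tips (adjusted p = 0.0601 and 0.183). With a pseudocount of 0.1 TPM in place of 1 TPM, Pigr (adjusted p = 0.019) and Retnla (adjusted p = 0.0298) passed as well. Taken alone, the 5 organoids of 11 to 13 days were above tips for Retnla by 2.28 ± 0.60 on the log2 scale (adjusted p = 0.0074), while Pigr and Cd177 were too low there to be tested. That fit called 9564 of 16003 genes, 3559 of them higher, and the 8 members it tested. All of these members but Cd14 were kept through the organoids, so nothing is read from that count.

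A second list held 32 other defence genes. Only 15 of them passed the filter on low values and could be tested. Of those, 12 were called higher and 1 lower in organoids, beside 21.7% and 40.2% of all genes kept. Their median log2 difference was 1.96 against -0.20 for all genes. Genes under 1 TPM in all tips, such as Sftpd and Cxcl5 below, were kept through the organoids alone. Neither the counts of these lists nor such p-values set them apart. Wfdc2, a secreted protease-inhibitor-like protein, was at 183 to 536 TPM in organoids and 161 to 258 TPM in tips, a difference of 0.78 ± 0.24 (adjusted p = 0.00942). The lung collectins Sftpd and Sftpa1 showed wider gaps. Sftpd had 12.8 to 1072 TPM in organoids and 0 in all tips (adjusted p = 2.49e-05), and Sftpa1 had 88.3 to 908 TPM in organoids and 10.1 to 22.9 TPM in tips (adjusted p = 6.03e-06). Among 13 tested of 14 genes known to respond to NF-kB, 12 were higher and none lower, including Cxcl5 at 6.47 to 990 TPM in organoids and at most 0.2 TPM in tips (adjusted p = 6.12e-05). Of 6 tested myeloid markers, 4 were lower in organoids and none higher. Mesenchymal markers, with 5 of 6 lower, summed to 13.9 to 412 TPM in organoids and 218 to 341 TPM in tips, and their part in the result was not tested.

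**Figure D1:**
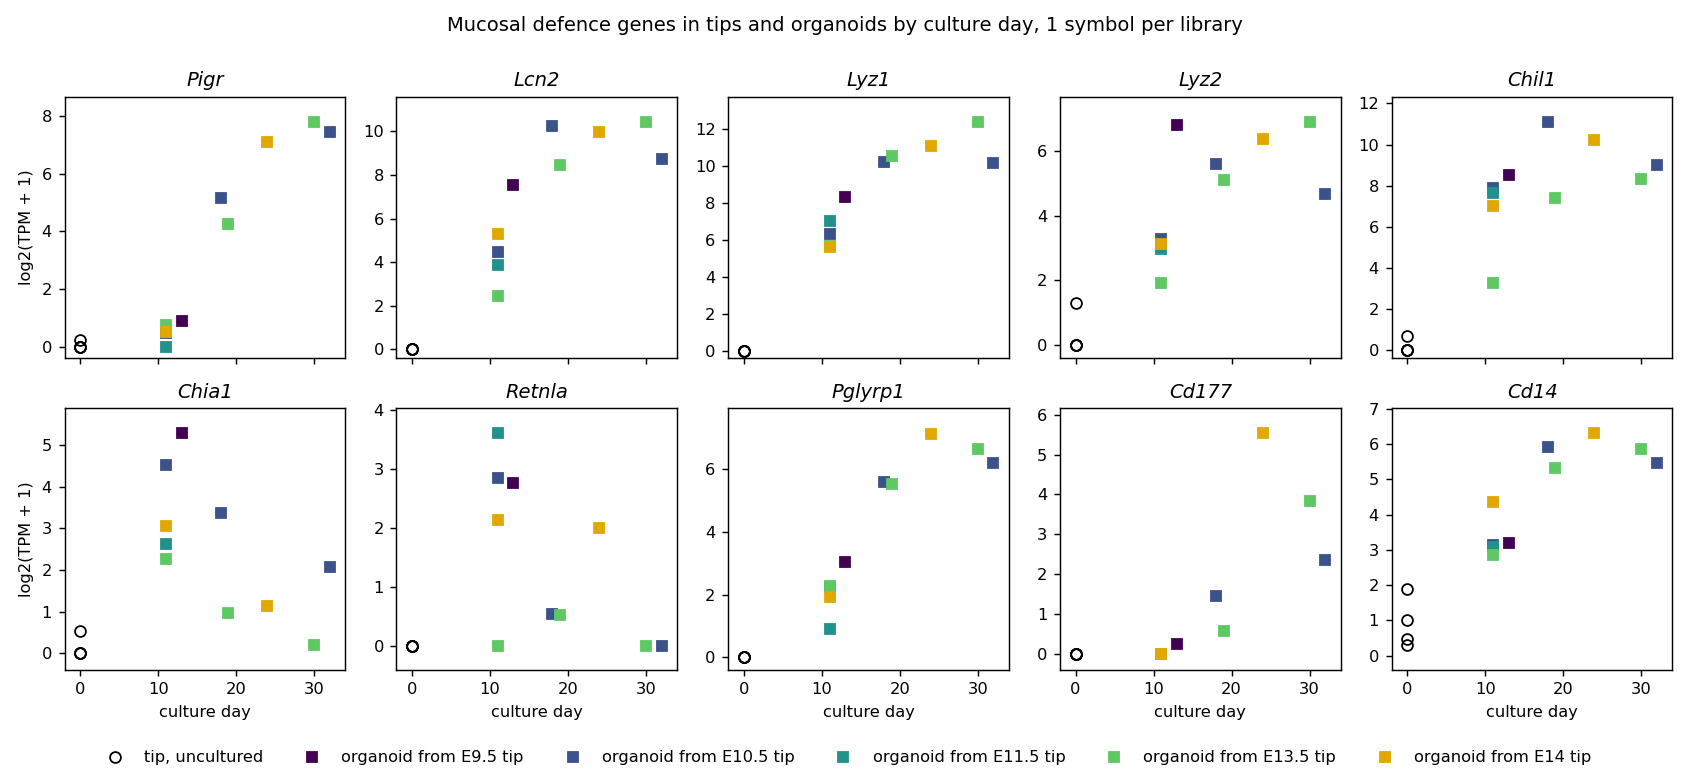
The 10 genes in tips (open circles, placed at day 0) and organoids (squares, coloured by the embryonic day of the starting tip) against culture day, as log2(TPM + 1), with 1 symbol per library and a separate vertical scale for each gene. In the 5 organoids of 18 to 32 days Pigr, Lcn2, Lyz1, Pglyrp1, Cd177 and Cd14 all lie above the 5 of 11 to 13 days, and Chia1 lies lower at longer culture.

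Within organoids, 6 of the defence genes were higher in every culture of 18 days or more than in any younger one. The same held for 2.1% of all genes kept. Chia1 tended to lower values with longer culture. The slope over the 21 days between the shortest and longest culture, adjusted for starting stage, was called higher for 6 members and lower for 1, beside 2.97% of genes called higher and 6.67% called lower. Culture day was among the settings that the choice of members used, so nothing is read from these counts. Of the genes called, 30.8% were higher, against 47.8% after quantile normalization and 59.9% after median-ratio rescaling. Without the 30- and 32-day organoids, 353 genes were called in place of 1617, and 7 members were called, all higher. Scaled to the same 21 days, the slopes without those organoids were steeper by over 1.5 times for Lcn2 (11.94), Lyz1 (9.76), Lyz2 (6.62), Chil1 (7.85), Pglyrp1 (9.25), Cd177 (6.81) and Cd14 (5.21), while that of Chia1 was -2.33 ± 0.98 and that of Retnla -1.24 ± 1.65.

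Pigr was the most sharply divided by time. At 11 days it was at 0.39, 0, 0.67 and 0.43 TPM in organoids from E10.5, E11.5, E13.5 and E14 tips, and at 13 days at 0.86 TPM. It was at 34.5 TPM at 18 days, 18.0 TPM at 19 days, 138 TPM at 24 days, 222.7 TPM at 30 days and 174 TPM at 32 days. No organoid of 13 days or less reached 1 TPM, and each older one exceeded 10 TPM. The fitted slope was 7.95 ± 0.68 on the log2 scale over the 21 days (SE), the steepest of the 10 in the fit with all organoids. Without the organoids of 30 and 32 days, Lcn2 had a steeper slope than Pigr.

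Cd177 appeared later still. It was listed at 0 in all 4 of the 11-day organoids and was at 0.18 TPM at 13 days. The values at 18, 19, 24, 30 and 32 days were 1.75, 0.49, 45.4, 13.3 and 4.15 TPM. The 24-day organoid from an E14 tip stood highest, and the slope was 3.80 ± 0.83.

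Lcn2 and Lyz1 were already present at 11 days. Lcn2 had 20.7, 13.7, 4.37 and 38.2 TPM in the 11-day organoids from E10.5, E11.5, E13.5 and E14 tips, and 185 TPM at 13 days. At 18, 19, 24, 30 and 32 days it had 1229, 349, 993, 1362 and 421 TPM. The older organoids did not overlap the younger ones, but their order did not follow days, with the 18-day value above the 32-day value. Lyz1 had 78.0, 129, 49.7 and 47.2 TPM at 11 days in the same order of stages, and 316 TPM at 13 days. At 18, 19, 24, 30 and 32 days it had 1205, 1518, 2188, 5288 and 1130 TPM. The slopes were 5.87 ± 1.35 for Lcn2 and 5.41 ± 0.96 for Lyz1.

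Pglyrp1 and Cd14 shared the separation of young and old organoids at lower levels. Pglyrp1 was at 0.87 to 7.30 TPM at 11 to 13 days and 45.2 to 139.5 TPM at 18 to 32 days. Cd14 was at 6.28 to 19.4 TPM at 11 to 13 days and 38.9 to 78.6 TPM at 18 to 32 days. Their slopes were 5.15 ± 0.80 and 2.73 ± 0.65. Across all genes kept, 2.1% had every older organoid above every younger one, as these 2, Pigr, Lcn2, Lyz1 and Cd177 did.

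Lyz2 and Chil1 varied as much between organoids of like age as between ages. Lyz2 had 2.77 to 8.62 TPM at 11 days but 110 TPM in the 13-day organoid from an E9.5 tip, which lay above 4 of the 5 older organoids (24.2 to 118 TPM). Chil1 had 237, 195, 8.46 and 129 TPM at 11 days in organoids from E10.5, E11.5, E13.5 and E14 tips, and 362 TPM at 13 days. At 18, 19, 24, 30 and 32 days Chil1 was at 2162, 165, 1197, 317 and 512 TPM. Organoids from E13.5 tips held the lowest Chil1 value at 11 days and the 2 lowest values at 18 to 32 days. Slopes were 2.83 ± 1.04 for Lyz2 and 2.73 ± 1.23 for Chil1.

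Chia1 and Retnla had slopes below 0, that of Retnla with an error larger than itself once the 30- and 32-day organoids were left out. Chia1 had 21.9, 5.21, 3.80 and 7.28 TPM at 11 days in organoids from E10.5, E11.5, E13.5 and E14 tips and 38.2 TPM at 13 days from an E9.5 tip. It had 9.30, 0.96, 1.20, 0.14 and 3.20 TPM at 18, 19, 24, 30 and 32 days. Chia1 was lower both with longer culture and with later starting stage in this fit: its slope was -2.35 ± 0.47 over the 21 days of culture and -2.76 ± 0.47 over the 4.5 days of starting stage, both on the log2 scale. Each of the 3 stages sampled at several ages (E10.5, E13.5 and E14) had its highest Chia1 value at 11 days. Retnla was at 0 to 11.3 TPM at 11 to 13 days and 0 to 3.00 TPM later, with a slope of -2.09 ± 0.80. Chia1 stood behind only Chil1 and Lyz1 among the 10 genes in the youngest E10.5 organoid and below Pigr, Cd14 and Pglyrp1 in all organoids of 18 days or more.

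The second list of defence genes had 5 of 15 tested members called higher with culture day and none lower. These were Sftpd (4.87 ± 1.11 over the 21 days), Slpi (3.49 ± 0.97), Lbp (2.11 ± 0.53), Tlr2 (1.90 ± 0.31) and Tlr4 (0.98 ± 0.28), named after their values were seen. Of 13 NF-kB response genes 2, Icam1 (1.26 ± 0.30) and Nfkbia (1.23 ± 0.36), were also called higher. None of 6 myeloid markers was called, and their sum was highest, at 8.82 TPM, in the 30-day organoid. Of 10 AT2 markers 1 was called higher (Sftpd) and 1 lower (Lpcat1, -0.60 ± 0.17), with a median slope of 0.36 against -0.17 for all genes, and Sftpc, the surfactant gene with the most RNA, had a slope of 0.01 ± 0.35. The 6 mesenchymal markers had a median slope of -2.10, with 1, Vim, called lower (-3.05 ± 0.57), and Vim and Lpcat1 are named here after their values were seen. Their sum was 27.4 to 412 TPM at 11 to 13 days and 13.9 to 206 TPM later, and its part in the slopes was not tested.

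Genes with the most similar profile over the 10 organoids were sought among 10124 genes, by the root mean square difference of centred log2(TPM + 1). Cd14 had the closest neighbours, Zc3h12a at 0.24, Neurl3 at 0.29 and Tnfrsf9 at 0.35. The nearest gene to Lcn2 was Sftpd at 0.59, followed by Lyz1 at 1.04 and Kng2 at 1.15. For Lyz1 the nearest were Kng2 (0.74), Sftpd (0.87) and Pglyrp1 (0.87), and for Pglyrp1 they were Kng2 (0.71), B4galnt1 (0.72) and Slc39a4 (0.73). Lyz2 was nearest to Vnn3 (0.74), Vnn1 (0.83) and Npdc1 (0.88). Pigr had Pf4 at 1.00, Pglyrp1 at 1.13 and Ly6i at 1.14, and Chil1 had Fabp5 at 1.14, Trf at 1.17 and St6galnac4 at 1.19. The nearest gene of these 2 was further away than that of the other members searched. This measure tends to grow with how widely a gene varies, so distances of different members are not on equal terms. Chia1 was nearest to Heph (0.75), Khdrbs3 (0.78) and Unc5b (0.79), and Retnla to Glo1 (0.67), Celf4 (0.71) and Ltbp4 (0.71). Cd177 was too low for the search.

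In the LO libraries, DCI at day 11 coincided with higher chitinase-family and resistin-like RNA, and the day 18 library held the highest lysozyme, Lcn2 and Chil1 values of the 4. Each LO condition is 1 library, so no difference has a replicate check, and a gene was counted when its log2(TPM + 1) differed by 1 or more with at least 5 TPM in the higher library. By this rule 7 members were higher and 1 lower in LO_day11_DCI than in LO_day11, where 11.2% of genes were higher and 13% lower. Retnla had 330.5 TPM in LO_day11_DCI and 20.8 TPM in LO_day11, and Chia1 had 241 and 13.52 TPM in the same order. Set side by side across the tables, no other library of the 40 listed a higher value of either gene. Lcn2 had 66.6 TPM in LO_day11_DCI and 0.77 TPM in LO_day11, Lyz1 had 226 and 7.99 TPM, Lyz2 20.5 and 0 TPM, Chil1 108 and 2.51 TPM and Pglyrp1 10.7 and 0.74 TPM. Cd14 was the member that was lower, with 2.66 TPM in LO_day11_DCI and 6.47 TPM in LO_day11. Pigr was at 1.13 and 0.34 TPM, and Cd177 was listed at 0 in both. AT2 markers moved with these genes: 8 of 10 were higher and 1 lower in LO_day11_DCI, with a median log2 difference of 4.06, and they summed to 85354 TPM in LO_day11_DCI and 38585 TPM in LO_day11. Their part in the result was not tested.

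**Figure D2:**
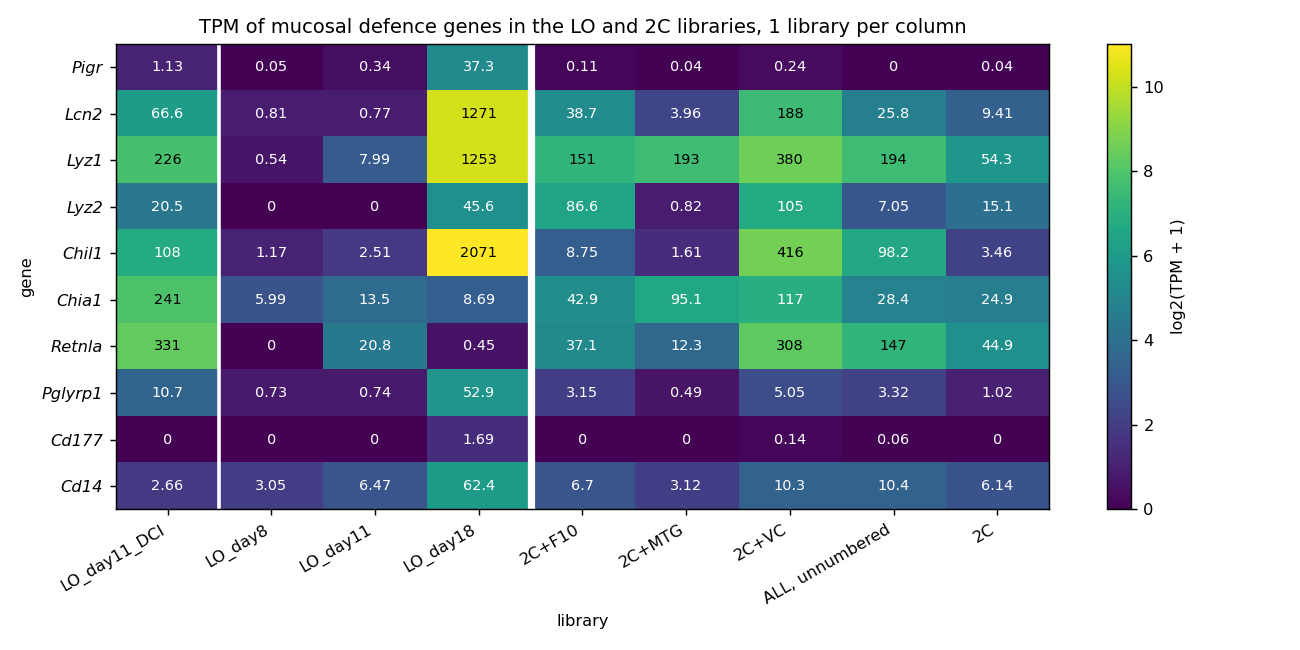
TPM of the 10 genes (rows) in the 4 LO and 5 2C-table libraries (columns, 1 library each), coloured by log2(TPM + 1). Retnla and Chia1 are brightest in LO_day11_DCI, at 330.5 and 241 TPM, and Lcn2, Lyz1 and Chil1 in LO_day18, at 1271, 1253 and 2071 TPM.

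Over LO days 8, 11 and 18, the widest differences lay between days 11 and 18. Lyz1 was at 0.54, 7.99 and 1253 TPM, Lcn2 at 0.81, 0.77 and 1271 TPM and Chil1 at 1.17, 2.51 and 2071 TPM on those days. Pigr was at 0.05, 0.34 and 37.3 TPM, Pglyrp1 at 0.73, 0.74 and 52.9 TPM and Cd14 at 3.05, 6.47 and 62.4 TPM. Retnla was at 0, 20.8 and 0.45 TPM, and Chia1 at 5.99, 13.52 and 8.69 TPM, so these genes had their highest value of the 3 at day 11. Lyz2 was listed at 0 on days 8 and 11 and was at 45.6 TPM on day 18, while Cd177 was first above 0 on day 18, at 1.69 TPM. LO_day11 had 3 members higher and none lower than LO_day8, where 2.38% of genes were higher. LO_day18 had 7 members higher and 1 lower than LO_day11, where 6.32% were higher and 7.77% lower. AT2 markers summed to 13267, 38585 and 121850 TPM on days 8, 11 and 18, with 9 of 10 higher on day 18 than on day 11. Mesenchymal markers summed to 43.8, 87.0 and 16.6 TPM, and the part of either list in the result was not tested.

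LO_day18 was close to a library of another table. Its values were near those of the 18-day organoid from an E10.5 tip in the other table. The interquartile range of log2 ratios over 1044 genes above 100 TPM was 0.14. By this range no other pair of libraries was closer except the ALL-FGF10 duplicates. Pearson's r of log2(TPM + 1) was 0.9835 across all genes shared by the tables, which are not independent replicates. By r, the ALL-VC duplicates (0.9847), the E12.5 and E13.5 tips (0.9844) and the right-half and down-half-right pieces (0.9838) were also closer. The files were not identical, and the labels do not say whether the material was shared. Whether the LO day course and the organoid course are independent at day 18 is therefore not known.

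Added to 2C, the factors differed in which defence genes were higher. VC gave the widest set: 7 members were higher and none lower in 2C+VC than in 2C, where 5.81% of genes were higher. Chil1 had 416 TPM in 2C+VC and 3.46 TPM in 2C, Lcn2 188 and 9.41 TPM, Retnla 308 and 44.9 TPM and Chia1 117 and 24.9 TPM. Lyz1 had 380 TPM in 2C+VC and 54.3 TPM in 2C, Lyz2 105 and 15.1 TPM and Pglyrp1 5.05 and 1.02 TPM. Pigr (0.24 and 0.04 TPM), Cd177 (0.14 and 0 TPM) and Cd14 (10.3 and 6.14 TPM) differed by less than the limit. Of 11 measurable genes of the second defence list 10 were also higher in 2C+VC and none lower. So were 9 of 10 AT2 markers, with a median log2 difference of 1.75 and a sum of 77014 TPM in 2C+VC and 27588 TPM in 2C, and their part in the result was not tested.

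F10 and MTG gave narrower and partly opposite sets. In 2C+F10, Lyz2 had 86.6 TPM against 15.1 TPM in 2C, Lcn2 38.7 against 9.41 TPM, Lyz1 151 against 54.3 TPM and Chil1 8.75 against 3.46 TPM. These 4 members were higher and none was lower, where 3.08% of genes were higher. Mesenchymal markers were also higher there, 3 of the 4 measurable ones, with a sum of 112 TPM in 2C+F10 and 17.2 TPM in 2C, and 4 of 10 AT2 markers were higher. The part of either list was not tested. In 2C+MTG the 2 lysozymes parted: Lyz1 had 193 TPM against 54.3 TPM in 2C, and Lyz2 0.82 TPM against 15.1 TPM in 2C. Their sum, which does not depend on how shared reads were split between them, was 194 TPM in 2C+MTG and 69.4 TPM in 2C. Chia1 was also higher, at 95.1 TPM in 2C+MTG and 24.9 TPM in 2C, and Lcn2 (3.96 and 9.41 TPM) and Retnla (12.3 and 44.9 TPM) were lower. This made 2 members higher and 3 lower, where 2.59% of genes were higher and 4.93% lower. The remaining members were not counted in either library, Pglyrp1 in 2C+F10 because it had under 5 TPM (3.15 TPM against 1.02 TPM in 2C, a log2 difference of 1.04).

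The unnumbered ALL of this table had 4 members higher and 1 lower than 2C, where 4.89% of genes were higher and 7.44% lower. Chil1 had 98.2 TPM in ALL and 3.46 TPM in 2C, Retnla 147 and 44.9 TPM, Lyz1 194 and 54.3 TPM and Lcn2 25.8 and 9.41 TPM. Lyz2 was lower, with 7.05 TPM in ALL and 15.1 TPM in 2C. AT2 markers were higher in 7 of 10 cases and summed to 112699 TPM in ALL. Pigr was listed at 0 in ALL and at 0.04 TPM in 2C, and no library of this table exceeded 0.24 TPM. Myeloid markers summed to 1.33 to 3.52 TPM in these 5 libraries.

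Pigr, Lcn2, Lyz2, Pglyrp1, Cd177 and Cd14 were lower than in both numbered ALL libraries in all 3 omissions. Where MTG was left out, all 10 genes had lower values. The 3 omissions share the same 2 ALL libraries, so they are not independent of each other, and the omissions were among the settings that chose the genes. The counts called by limma over 14802 genes were 4 members lower for FGF10, where 0.953% of genes were called lower, 6 lower for MTG (0.378%) and 3 lower for VC (0.595%). No member was called higher. Nothing is read from these counts, which moved when single libraries were left out. For FGF10, 0 members were called without ALL-FGF10 replicate 2, 1 without ALL-FGF10 replicate 1 or ALL replicate 2, and 2 without either ALL-VC library. For MTG, 1 was called without either ALL-VC library, 2 without either ALL library, ALL-MTG replicate 1 or ALL-FGF10 replicate 1, and 3 without ALL-FGF10 replicate 2. For VC, 0 were called without ALL replicate 2 or either ALL-VC library, and 1 without either ALL-FGF10 library.

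**Figure D3:**
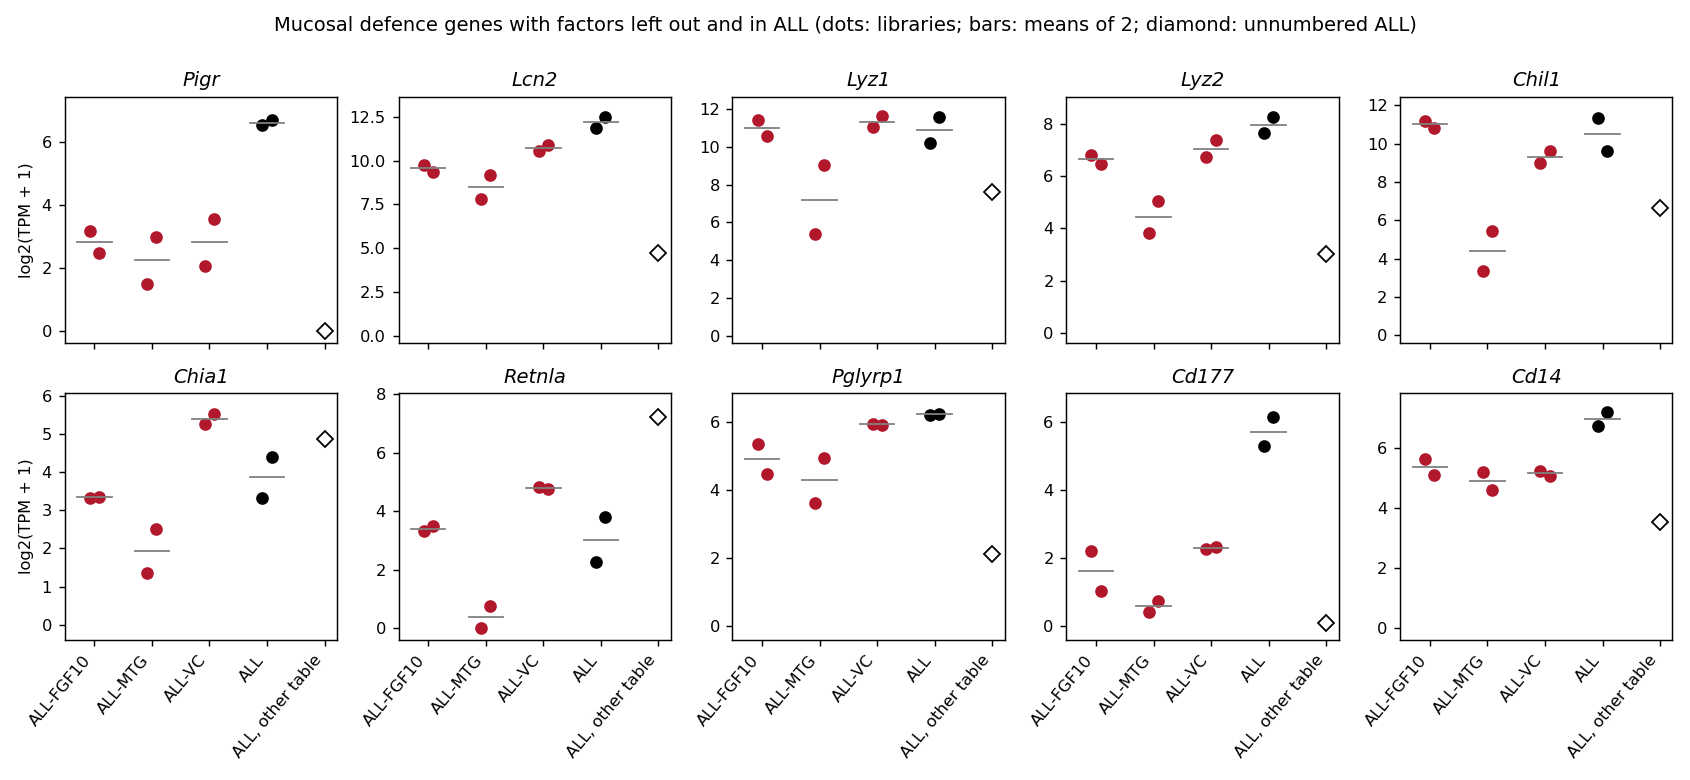
The 10 genes as log2(TPM + 1) in ALL-FGF10, ALL-MTG, ALL-VC and ALL (dots, 2 libraries each, with the mean as a bar) and in the unnumbered ALL library of the other table (open diamond). Pigr, Lcn2, Lyz2, Pglyrp1, Cd177 and Cd14 lie below both numbered ALL libraries in all 6 omission libraries. For these genes the unnumbered ALL lies below all 6 as well, and for 8 of the 10 genes it lies below the numbered ones.

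Pigr was at 8.10 and 4.49 TPM in ALL-FGF10, at 1.79 and 6.95 TPM in ALL-MTG, and at 3.16 and 10.8 TPM in ALL-VC, against 93.0 and 102.9 TPM in ALL. The 6 omission libraries did not overlap ALL, and the log2 differences were -3.81 for FGF10, -4.39 for MTG and -3.82 for VC, each ± 0.61 (SE). Cd177 was at 3.60 and 1.04 TPM in ALL-FGF10, at 0.34 and 0.67 TPM in ALL-MTG, and at 3.82 and 4.04 TPM in ALL-VC, against 38.2 and 70.3 TPM in ALL. Its differences were -4.11, -5.14 and -3.42, each ± 0.45. Cd14, the lipopolysaccharide co-receptor, was at 48.8 and 33.4 TPM in ALL-FGF10, at 36.0 and 23.1 TPM in ALL-MTG, and at 36.9 and 32.7 TPM in ALL-VC, against 105 and 145 TPM in ALL. Its differences were -1.59, -2.06 and -1.80, each ± 0.28, and the omission libraries again lay below both ALL libraries.

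Lcn2 was graded. It was at 868 and 662 TPM in ALL-FGF10, at 223 and 585 TPM in ALL-MTG, and at 1507 and 1865 TPM in ALL-VC, against 3700 and 5707 TPM in ALL. All 6 omission libraries lay below both ALL libraries, with differences of -2.60, -3.67 and -1.45, each ± 0.43. Pglyrp1 was at 40.1 and 21.2 TPM in ALL-FGF10, at 11.2 and 30.0 TPM in ALL-MTG, and at 60.3 and 59.7 TPM in ALL-VC, against 73.3 and 75.1 TPM in ALL. Its differences were -1.31, -1.95 and -0.30, each ± 0.44.

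The lysozymes separated MTG from the other omissions. Lyz1 was at 2768 and 1515 TPM in ALL-FGF10, at 40.6 and 516 TPM in ALL-MTG, and at 2129 and 3178 TPM in ALL-VC, against 1201 and 3114 TPM in ALL. Only the ALL-MTG libraries lay below both ALL libraries, and they differed from each other by more than any other pair, and the difference was -3.72 ± 1.04. Lyz2 was at 113 and 87.9 TPM in ALL-FGF10, at 13.0 and 32.1 TPM in ALL-MTG, and at 105 and 168 TPM in ALL-VC, against 200.5 and 309 TPM in ALL. Its differences were -1.31, -3.54 and -0.90, each ± 0.43.

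Among the chitinase-family genes, Chil1 was at 2303 and 1828 TPM in ALL-FGF10, at 9.36 and 42.3 TPM in ALL-MTG, and at 504 and 786 TPM in ALL-VC, against 2615 and 793 TPM in ALL. The MTG difference of -6.09 ± 0.72 was the widest of any member in any omission, whereas the FGF10 and VC differences were 0.51 and -1.19, each ± 0.72. Chia1 was at 9.02 and 9.22 TPM in ALL-FGF10, at 1.58 and 4.73 TPM in ALL-MTG, and at 37.7 and 44.9 TPM in ALL-VC, against 8.98 and 20.2 TPM in ALL. Its values in ALL-VC were above both ALL libraries, a difference of 1.53 ± 0.46, and in ALL-MTG below both. Retnla had the same order, with 8.99 and 10.2 TPM in ALL-FGF10, then 0 and 0.71 TPM in ALL-MTG, then 27.1 and 26.1 TPM in ALL-VC, against 3.78 and 12.9 TPM in ALL. Its differences were 0.37, -2.64 and 1.76, each ± 0.50.

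Few genes of the second defence list were called in these comparisons. Of 12 tested, Tlr2 was lower without FGF10 (-2.27 ± 0.29) and without VC (-1.97 ± 0.29), Wfdc2 was lower without VC (-1.83 ± 0.17) and Slpi was lower without MTG (-1.93 ± 0.28). The most abundant were Sftpa1, Sftpd and Wfdc2. The ALL-MTG libraries held 291 and 407 TPM of Sftpa1 and the ALL-VC libraries 257 and 666 TPM, against 1464 and 1624 TPM in ALL, without being called. Of 14 NF-kB response genes, Birc3 was lower without MTG (-1.55 ± 0.17) and Icam1 without VC (-1.62 ± 0.13), at 66.5 and 76.6 TPM in ALL-VC and 219 and 222.7 TPM in ALL. The called genes of both lists were named after their values were seen, except Wfdc2 and Icam1. None of 10 AT2 markers was called without MTG, and their median difference was -0.67 against 0.07 for all genes. The ALL-MTG libraries held 78632 and 80427 TPM of Sftpc and the ALL libraries 53158 and 86843 TPM. The widest differences of the 10 were -2.16 ± 0.39 for Sftpa1, -2.03 ± 0.42 for Sftpd and -1.22 ± 0.29 for Slc34a2, chosen after their values were seen. Mesenchymal markers summed to 79.1 and 265 TPM without MTG and 9.79 and 114 TPM in ALL, and myeloid markers to 2.96 and 4.15 TPM in ALL-MTG and 2.07 and 4.46 TPM in ALL. The part of these markers in the result was not tested.

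The spread among ALL libraries was wide for these genes. Between the numbered duplicates the median absolute log2 difference was 0.74 for the 10 genes and 0.42 for all 14802 genes, from 0.03 for Pglyrp1 and 0.14 for Pigr to 1.54 for Retnla and 1.72 for Chil1. The unnumbered ALL, from the other table, differed from the numbered mean by a median of 4.15 for the 10 genes and 0.29 for all genes, a difference set across 2 tables. Lcn2 was at 25.8 TPM in the unnumbered ALL and at 3700 and 5707 TPM in the numbered ones, a log2 difference of 7.42. Pigr was listed at 0 there (93.0 and 102.9 TPM in the numbered ones), Chil1 was at 98.2 TPM (2615 and 793 TPM) and Cd177 at 0.06 TPM (38.2 and 70.3 TPM). Retnla was the exception in direction together with Chia1, at 147 TPM against 3.78 and 12.9 TPM and 28.4 TPM against 8.98 and 20.2 TPM. For Pigr, Lcn2, Lyz2, Pglyrp1, Cd177 and Cd14 the unnumbered ALL also lay below every omission library, again across 2 tables. Lcn2, for example, was at 223 TPM or more in the omission libraries. Set against the unnumbered ALL, the direction of the omissions was thus reversed for these genes. The labels give no culture day for any ALL library. With the unnumbered library added to ALL, no member was called for any omission, against 4, 6 and 3 for FGF10, MTG and VC without it.

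Organoid pieces differed from each other more for some defence genes than for others. The 8 pieces are single libraries and by their names some lie within others (up-half-left within up-half), so they are not replicates and no test was made. Their names do not say how many organoids they came from, and overlapping pieces cannot all be sequenced whole from 1 organoid. Position within an organoid and differences between organoids therefore cannot be told apart. Lcn2 had the narrowest range of the 10: it ran from 2122 through 3230 to 4360 TPM in the pieces and was at 2513 TPM in the intact organoid, a range over all 9 of 1.04 on the log2 scale, beside a median of 0.89 for 10406 genes with a mean of at least 5 TPM. Cd14 was next, from 59.1 through 127 to 144.5 TPM in pieces and 135 TPM in the intact organoid, a range of 1.28. These ranges were wider than those of 62.8% and 76.6% of the genes.

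**Figure D4:**
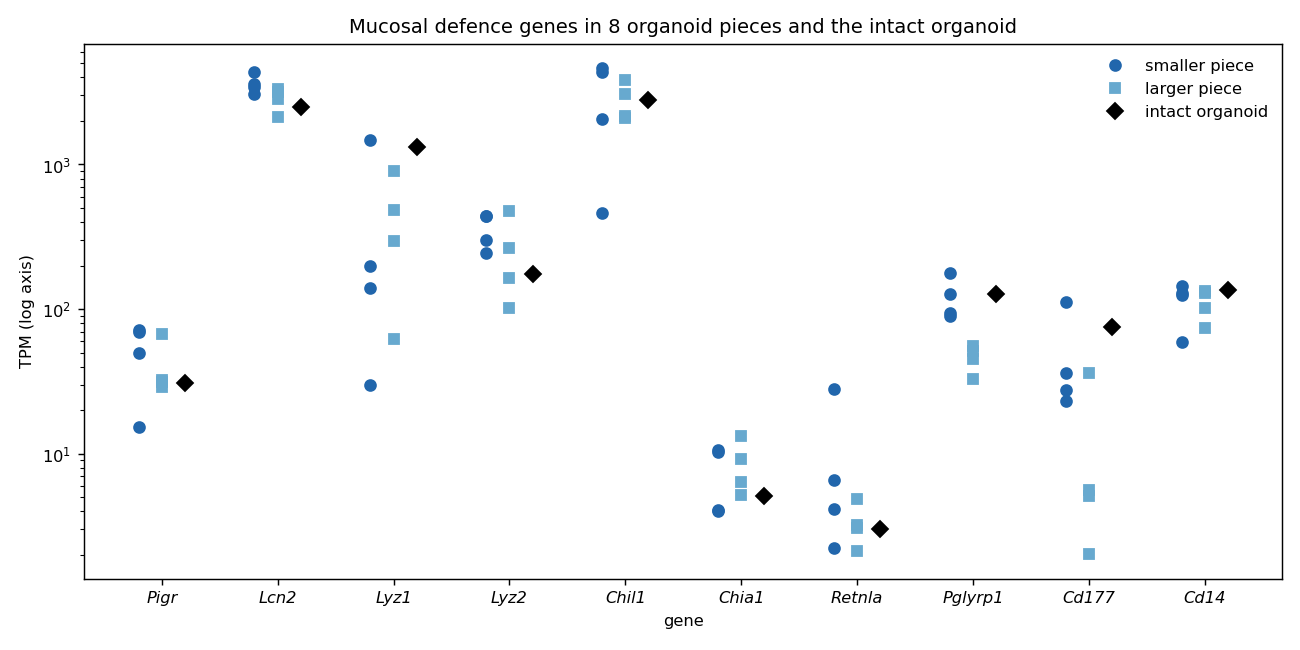
TPM of the 10 genes on a log axis in the 4 smaller pieces (circles), the 4 larger pieces (squares) and the intact organoid (diamond), 1 library per symbol. Lyz1 and Cd177 spread over the widest ranges, from 29.6 to 1484 TPM and from 2.01 to 111 TPM in the pieces, while Lcn2 stays between 2122 and 4360 TPM.

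Lyz1 was the most uneven. It was at 895 TPM in the up-half, 61.8 TPM in the down-half, 482 TPM in the left-half and 295 TPM in the right-half. In the smaller pieces it was at 198 TPM (up-half-left), 29.6 TPM (up-half-right), 1484 TPM (down-half-left) and 140 TPM (down-half-right), against 1319 TPM in the intact organoid. Its range of 5.60 on the log2 scale was wider than that of 99.1% of the genes. The down-half was below both smaller pieces named from it, and the up-half above both of its own. Summed with Lyz2, lysozyme RNA ran from 273 TPM in the up-half-right to 1785 TPM in the down-half-left, and the Lyz1 to Lyz2 ratio from 0.12 in the up-half-right to 8.76 in the up-half.

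Cd177 was at 2.01, 5.07, 5.62 and 36.4 TPM in the up-, down-, left- and right-half and at 111, 27.8, 23.2 and 36.4 TPM in the up-half-left, up-half-right, down-half-left and down-half-right, against 75.7 TPM in the intact organoid. Chil1 was between 2061 and 4626 TPM in 7 pieces and at 459 TPM in the up-half-right, against 2793 TPM in the intact organoid. Retnla was highest where Chil1 was lowest, at 28.0 TPM in the up-half-right, and at 2.13 to 6.56 TPM in the other pieces and 3.01 TPM in the intact organoid. These were the members, after Lyz1, with the widest ranges.

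Pigr ran from 15.3 TPM in the down-half-left to 71.9 TPM in the down-half-right, with 30.6 TPM in the intact organoid. Lyz2 ran from 102 to 476 TPM with 175 TPM in the intact organoid, Pglyrp1 from 32.7 to 177 TPM with 126 TPM, and Chia1 from 4.01 to 13.4 TPM with 5.09 TPM. Counts of members past the limit of 1 on the log2 scale, relative to the intact organoid, were 2 lower in the up-half (8.54% of genes differed in either direction), 3 lower in the down-half (9%) and 3 lower in the left-half (9.22%). The right-half had 3 higher and 3 lower (9.23%), the up-half-left 2 higher and 1 lower (6.91%) and the up-half-right 1 higher and 3 lower (11.3%). The down-half-left had 2 lower (12.6%) and the down-half-right 2 higher and 2 lower (9.03%). Pigr and Lyz2 were both counted as higher in the right-half, the up-half-left and the down-half-right, and Cd177 as lower in every piece but the up-half-left. Myeloid markers summed to 2.03 to 8.58 TPM in pieces and 3.29 TPM in the intact organoid, highest in the down-half-left. Mesenchymal markers summed to 6.20 to 35.1 TPM in pieces and 4.24 TPM in the intact organoid, and AT2 markers to 58366 to 107567 TPM and 81407 TPM.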

How the data were processed

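Total RNA was extracted with TRIzol and sequenced as mRNA-seq libraries, per the labels' protocols. The submitters' processing notes name RSEM, Bowtie2 and the mm10 genome, and the authors deposited TPM values in 5 tables. Their versions, strand setting and annotation are not given in the sources used here. Fits and counts of differences were made within a table, except that the unnumbered ALL library of the 2C table was set against the numbered ALL libraries and added to their fit as an alternative. Other levels set across tables are values side by side. The one column without a matching sample (columns without a sample: 1) was not used.

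Genes with at least 1 TPM in at least 2 of the libraries fitted were kept. Log2(TPM + 1) was fitted with limma 3.58.1 (R 4.3.3; trended empirical Bayes, two-sided, Benjamini-Hochberg over all genes kept, called at an adjusted p under 0.05), and a fold on this scale understates the change of low genes. Organoids and tips shared 1 fit, as did the 8 numbered ALL libraries. Of these fits, organoids against tips and ALL-FGF10 against ALL were also run on simulated data, and nothing here rests on the outcome. The culture-day slope and the MTG and VC omissions were not simulated. Single libraries were compared by a log2 difference of at least 1 with at least 5 TPM in the higher library.

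The 10 genes and all other lists were chosen with earlier results of these data known. All 10 genes are named in the main comparisons, while some single-library comparisons and the spread between ALL libraries name only part of them. Of each other list at most 3 genes are named, those with the highest mean TPM over the libraries compared, and exceptions are stated. Similar genes were sought among those with at least 5 TPM in at least 3 of 10 organoids, without predicted, Rik and mitochondrial genes. No 2 libraries held identical values. Alternatives covered the pseudocount, the filter, the scaling, the libraries fitted and a replicate block.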

Additional observations from a re-analysis of the deposited data

Results flagged for a closer look

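Among 15 combinations of a gene and a group examined for a library far from the others, 5 stood out by the ratio of the gap to the whole range, and chance flags about 1 in 20. Chil1 in the 11-day organoid from an E13.5 tip, at 8.46 TPM, lay below the other 9 organoids with a ratio of 0.482. In tips, Pigr, Lyz2, Chil1 and Chia1 had a ratio of 1 each, because 1 tip was above 0 and the other 3 were listed at 0. Such a pattern gives a ratio of 1 whatever the value, so the rate of 1 in 20 does not apply to it. That tip was the E10.5 tip for Lyz2 (1.45 TPM) and Chil1 (0.62 TPM), where myeloid markers summed to 6.18 TPM, the lowest of the 4 tips. It was the E11.5 tip for Pigr (0.17 TPM) and Chia1 (0.44 TPM).

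Adding MTG to 2C and having MTG in ALL went opposite ways for 4 genes among those with at least 5 TPM in 2C or 2C+MTG, and the difference was not tested because the 2C libraries are single. The log2 change with MTG in 2C minus that in ALL over ALL-MTG was -4.74 for Lcn2, -6.68 for Lyz2, -4.43 for Retnla and -2.85 for Cd14. These were lower in 2C+MTG than in 2C and lower in ALL-MTG than in both numbered ALL libraries. Chil1 and Pglyrp1, under 5 TPM in both 2C libraries, ran the same ways, with log2 differences of -0.77 and -0.44 for 2C+MTG against 2C. VC went opposite ways for Chia1 and Retnla, by 3.73 and 4.51 on the same scale, untested. Both were higher in 2C+VC than in 2C and higher in ALL-VC than in the numbered ALL. The 2C and numbered ALL libraries came from separate tables. In the unnumbered ALL, Lcn2 (25.8 TPM), Lyz2 (7.05 TPM), Pglyrp1 (3.32 TPM) and Cd14 (10.4 TPM) lay below both ALL-MTG libraries. Retnla (147 TPM) lay above both ALL-VC libraries. Set against that library, these directions were as in 2C, while Retnla and Chil1 for MTG and Chia1 for VC stayed opposite.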

How the results depend on the processing

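Over organoids against tips, 9563 to 9793 genes and 7 of the 10 members were called when each tip was left out in turn (10392 genes and 7 members with all), and no direction of any called value turned. Of 588 comparisons of a member's value with an alternative, 526 were labelled the same, 59 moved and 3 passed the threshold newly. Of 150 comparisons of a count of genes or members, 88 were labelled the same and 62 moved. A member labelled the same need not have kept its call. Without a filter, every member's MTG difference was labelled the same, yet the members called went from 6 to 0. With the pseudocount of 0.1 TPM the FGF10 omission called 177 genes (271 as reported) and 2 members (4), the VC omission 1 member (3), and the down-half-left piece 4 members past the limit (2). Without a filter the FGF10 omission called 1 member, the MTG omission 7 genes (76) and 0 members (6), and the VC omission 27 genes (119) and 0 members. The VC omission called 189 genes after quantile normalization and 188 after median-ratio rescaling. Fitting only the 2 groups compared, 166, 11 and 51 genes were called for FGF10, MTG and VC, with 1 member each for MTG and VC. With the unnumbered ALL added, the counts were 30, 8 and 14 genes and 0 members for each. The culture-day slope called 353 genes without days 30 and 32 (1617 with them). Leaving out 1 library in turn gave 9 to 1149 genes and 0 to 4 members for FGF10, 18 to 191 genes and 1 to 7 members for MTG, and 8 to 1309 genes and 0 to 3 members for VC. Where these fits leave 1 library in a group, that library is assumed to vary like the others. The cause of these moves was not tested. Deviations of same-numbered libraries were weakly correlated between groups (-0.07 to 0.11). This cannot show whether libraries of the same number were made together, and the fits reported take them as unpaired. With a replicate block, 143, 48 and 68 genes were called for FGF10, MTG and VC, with 1 member for VC. No depth is recorded in TPM, which limits what can be said of genes near 0.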

Other observations

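The level of a larger piece lay between those of the 2 smaller pieces named from it for 1 of the 10 genes for the up-half and 4 each for the down-half, left-half and right-half, beside 36.2%, 44.5%, 39.7% and 48.2% of 15017 genes. The intact organoid lay between the up-half and the down-half for 4 members (36.3% of genes) and between the left-half and the right-half for 3 (31.5% of genes). The Lyz1 to Lyz2 ratio was 235.6 in 2C+MTG and 46.7 in the 32-day organoid from an E10.5 tip, against 0.12 in the up-half-right piece.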
